A study of Mus musculus with 30 samples.

Results

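The transcripts of 10 genes of sarcolemmal membrane repair and of caveolae were followed in 4 tissues of mice without myotubularin. The genes are Dysf, Myof, Trim72, Anxa1, Anxa2, Anxa5, Anxa6, Cav1, Cav3 and Cavin1, named as a list, and all 10 were found among the 36103 genes of the count table. Myotubularin, the product of the X-linked gene Mtm1, is a phosphoinositide phosphatase, and its loss causes myotubular myopathy. RNA was sequenced from whole gastrocnemius (a fast hindlimb muscle), diaphragm, heart and liver of male Mtm1-/y knockout mice and WT littermates on a pure 129Pas background, all aged 5 weeks. There were 4 WT and 4 Mtm1-/y libraries of gastrocnemius and of heart, 4 and 3 of diaphragm, and 3 and 4 of liver, which makes 30. By the study's methods the libraries of a group come from different mice, while which libraries of different tissues share a mouse is not stated there or in the labels. Each library is a whole tissue with all of its cell types.

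A tear in the plasma membrane of a muscle fibre lets calcium in, and the cell answers by bringing vesicles and protein scaffolds to the wound. Dysferlin (Dysf) is a calcium-binding membrane protein whose loss causes a limb-girdle muscular dystrophy, myoferlin (Myof) is its close relative in fusing myoblasts, Trim72 (also called MG53) gathers vesicles at the wound, and annexins bind acidic phospholipids in the presence of calcium and form the repair cap. Caveolae are small flask-shaped pits that flatten when the membrane is stretched, and they are built from caveolins and cavins, with caveolin-1 (Cav1) in endothelium, adipocytes, smooth muscle and fibroblasts, caveolin-3 (Cav3) in striated muscle, and Cavin1 in both.

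In mm10 coordinates, all 10 are protein-coding genes. Dysf spans chr6:84008590-84211060, Cav1 chr6:17306335-17341452 and Cav3 chr6:112459505-112472872. Myof spans chr19:37899036-38043577 and Anxa1 chr19:20373428-20390944, and Anxa6 spans chr11:54979108-55033445 and Cavin1 chr11:100956733-100970887. Trim72 spans chr7:128003949-128011033, Anxa2 chr9:69453620-69491795 and Anxa5 chr3:36448923-36475894.

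Library totals lay between 24873817 and 44289343 counts. The targeted gene followed the labels, since Mtm1 was at 15.8 to 26.9 CPM (counts scaled to library size) in the WT libraries and at 3.49 to 8.19 CPM in the Mtm1-/y libraries. Cardiomyocyte, hepatocyte and skeletal fibre markers followed the tissue labels, but the diaphragm also held liver transcripts. The summed level of 10 hepatocyte markers was 36320, 24730, 468 and 27510 CPM in WT diaphragm 1 to 4, and 2894, 45940 and 788 CPM in Mtm1-/y diaphragm 1, 2 and 4. For comparison, these markers summed to 184200 to 214700 CPM in WT liver and to 8.01 to 147 CPM in the hearts. In whole tissue, fewer cells of one type and less RNA per cell cannot be told apart.

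Among WT muscles, the repair and caveolar genes were abundant except for Myof. On a scale per transcript length (RPKM, mean ± SD over libraries), WT gastrocnemius (n = 4) had Trim72 at 111 ± 16.1, Anxa6 at 88.5 ± 3.85, Cav3 at 85.8 ± 9.58 and Cav1 at 85.2 ± 8.26. The last 3 of these differed by less than their spread. Cavin1 stood at 56.4 ± 2.05 RPKM, ahead of Anxa5 at 30.8 ± 2.32 and Dysf at 29.7 ± 2.88, which did not differ beyond their spread. Anxa2 followed at 20.2 ± 2.46 RPKM, then Anxa1 at 8.86 ± 1.14, and Myof was last at 0.639 ± 0.142. WT heart (n = 4) and WT diaphragm (n = 4) had Cav1 first in order, at 101 ± 9.47 and 98.4 ± 5.48 RPKM, with Trim72 next at 79.0 ± 9.60 and 96.5 ± 16.5, which in diaphragm did not differ beyond the spread. In heart Trim72 and Anxa6, at 74.7 ± 3.69 RPKM, were likewise within their spread, and Dysf stood at 19.0 ± 2.63 in heart and 16.0 ± 3.56 in diaphragm. Cav3 stood at 50.6 ± 6.15 RPKM in heart and 54.6 ± 8.23 in diaphragm. WT liver (n = 3) had the annexins in front, with Anxa6 at 52.6 ± 6.57 RPKM, Anxa5 at 28.6 ± 1.55 and Anxa2 at 7.54 ± 0.432, while every other member stayed below 3 RPKM.

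**Figure D1:**
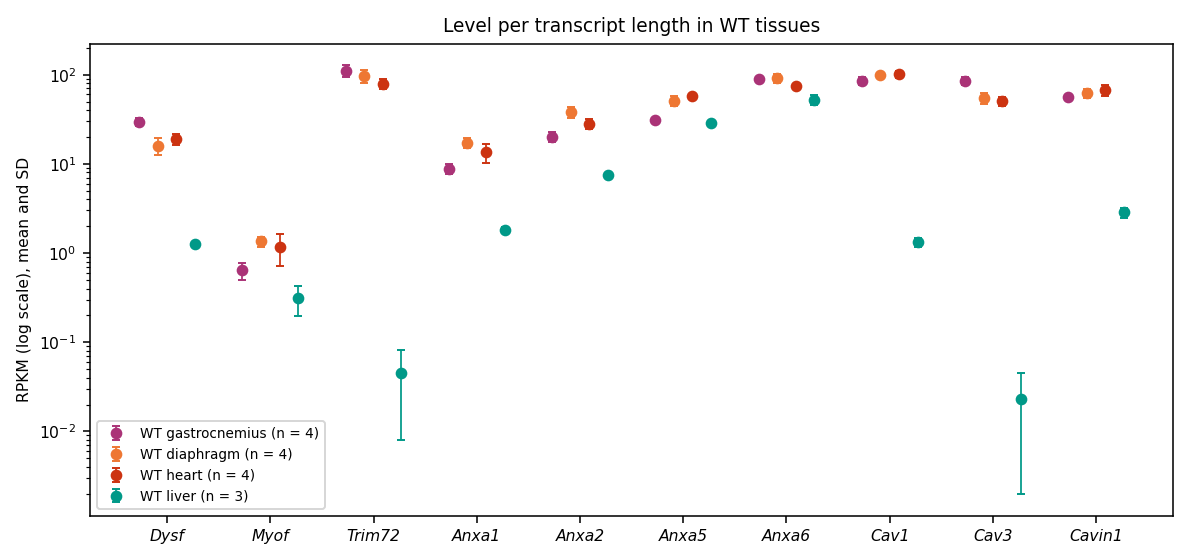
RPKM (mean and SD, log scale) of the 10 genes in WT gastrocnemius, diaphragm, heart and liver, with 3 or 4 libraries a tissue. Trim72 and Cav3 reach 111 and 85.8 in gastrocnemius and lie at 0.0447 and 0.0233 in liver, whereas Anxa6 lies between 52.6 and 91.3 in all 4 tissues.

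The annexins and Myof were higher in WT diaphragm and heart than in WT gastrocnemius, except Anxa6, and Dysf and Cav3 were lower. Compared with gastrocnemius, diaphragm had more Myof (log2 fold change 1.04, SE 0.27), Anxa1 (0.92, SE 0.16), Anxa2 (0.87, SE 0.13) and Anxa5 (0.69, SE 0.095) and less Dysf (−0.92, SE 0.14) and Cav3 (−0.68, SE 0.14). These 4 higher and 2 lower members of 10 stand beside 30.6% higher and 23.8% lower of 17725 genes tested. With the 1 WT diaphragm library low in hepatocyte markers alone, Myof was at 1.202, Anxa1 at 1.08, Anxa2 at 0.72 and Anxa5 at 0.79. Dysf was at −0.48 and Cav3 at −0.41 in that setting. The single library is then assumed to vary like the other groups, so no count of calls is drawn from it. With library totals alone, where the median of all genes was at 0.589, Cav3 was at −0.16 (adjusted p = 0.261), which is −0.75 relative to that median. Heart against gastrocnemius passed for the same 6 genes, in the same directions, and for Trim72 (−0.53, SE 0.18) and Anxa6 (−0.28, SE 0.10), which gives 4 higher and 4 lower members beside 32.6% and 28.7% of all genes. The direction of those last 2 genes depended on the scaling, because with library totals alone Anxa6 was at 0.31 and Trim72 at 0.063, while the median of all genes was at 0.666. Relative to that median they were at −0.36 and −0.60. With library totals Dysf (−0.092, adjusted p = 0.532) and Cav3 (−0.20, adjusted p = 0.158) no longer passed, and relative to the same median they were at −0.76 and −0.87. Of the 8 calls, Myof was lost without WT heart 4 (0.55, adjusted p = 0.0568) and Trim72 without WT gastrocnemius 4 (−0.44, adjusted p = 0.0617) or WT heart 1 (−0.48, adjusted p = 0.0515). Anxa6 was lost without libraries 1 or 4 of either WT tissue (adjusted p between 0.0528 and 0.0607) and with no filter (adjusted p = 0.109), and in 1 fit over all 30 libraries Trim72, Anxa2 and Anxa6 had adjusted p of 0.119, 0.118 and 0.0956. Between heart and diaphragm, 2 members passed, Anxa2 (−0.42, SE 0.13) and Anxa6 (−0.29, SE 0.10) both lower in heart, beside 29.6% of all genes lower and 22.1% higher. Anxa6 was lost without WT diaphragm 2 (adjusted p = 0.0596), and with DESeq2 size factors, library totals, no filter or 1 fit over all libraries its adjusted p was 0.0513, 0.0604, 0.079 and 0.0577. Anxa2 was lost with library totals (adjusted p = 0.0782) and in the fit over all libraries (adjusted p = 0.206). With the 1 low-hepatocyte WT diaphragm alone Anxa2 was at −0.25 and Anxa6 at −0.49.

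Liver was lower than gastrocnemius in 9 of 10 members, beside 42.1% of all genes, and lower than diaphragm and heart in 10 of 10, beside 40.6% and 40.8%. Cav1 had a log2 fold change of −6.09 (SE 0.16) against gastrocnemius, Dysf of −4.63 (SE 0.19) and Cavin1 of −4.38 (SE 0.15). Anxa5 was the exception against gastrocnemius, at −0.18 with a 95% interval of −0.40 to 0.040. The muscle-restricted genes were at the limit of detection in WT liver, with 2, 1 and 4 counts of Trim72 and 1, 0 and 1 counts of Cav3 in the 3 libraries.

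Windows of up to 250 bases before the RefSeq start were found for 9 of the 10 genes, all but Anxa6, in GRCm38.p6. From RefSeq, 3 of them are printed here, for a caveolin that fell in Mtm1-/y gastrocnemius (Cav1), the caveolin of striated muscle (Cav3), and Anxa2, an annexin that rose there. Capitals mark matches, on either strand, to 1 of 8 short motifs, which were the E-box CANNTG and its form CAGCTG (which lies within CANNTG), the AP-1 site TGANTCA, the GC box GGGCGG, the TATA box as TATAAA, the RUNX site TGTGGT, the CArG box and the MEF2 site. The Cav1 window is chr6:17306085-17306334, the Cav3 window is chr6:112459255-112459504, and the Anxa2 window, which stops ahead of the first annotated exon, is chr9:69453433-69453619. All 3 lie on the + strand.
Cav1: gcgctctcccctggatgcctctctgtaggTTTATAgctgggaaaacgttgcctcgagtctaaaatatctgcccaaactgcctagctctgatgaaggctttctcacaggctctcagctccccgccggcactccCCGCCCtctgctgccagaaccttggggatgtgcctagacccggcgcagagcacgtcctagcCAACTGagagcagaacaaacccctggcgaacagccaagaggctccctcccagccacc
Cav3: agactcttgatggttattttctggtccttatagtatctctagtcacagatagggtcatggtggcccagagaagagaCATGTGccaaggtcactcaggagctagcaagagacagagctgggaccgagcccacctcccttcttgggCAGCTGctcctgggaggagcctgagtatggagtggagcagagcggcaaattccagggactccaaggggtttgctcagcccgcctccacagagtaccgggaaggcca
Anxa2: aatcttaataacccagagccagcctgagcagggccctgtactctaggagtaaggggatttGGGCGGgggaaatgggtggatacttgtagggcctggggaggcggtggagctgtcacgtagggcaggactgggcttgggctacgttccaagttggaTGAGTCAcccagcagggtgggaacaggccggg
The Cav3 window held CAGCTG 106 bases before its start, a sequence present in 13% of 32851 such windows, and another E-box. Cav1 held an E-box of another form, a GC box and a TATAAA match on the other strand. Anxa2 held the AP-1 sequence TGAGTCA 95 bases before its RefSeq start, and TGANTCA is found in 6.75% of windows. The full Anxa2 window up to that start ends at chr9:69453682, past the end of the printed bases. Its unprinted part held GGGCGG 48 and 24 bases and TATAAA 17 bases before the RefSeq start. CANNTG and GGGCGG, each held by 4 of the 9 genes, are found in 66.2% and 32.7% of windows. TATAAA, held by 3 of the 9, is found in 12.4%, and TGTGGT, held by 2, in 14%. The CArG box is found in 1.47% and the MEF2 site in 1.69%, and these last 2 had no match in the 9 genes. These are matches of letters in a window and no binding was measured.

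In Mtm1-/y gastrocnemius, 6 of the 10 genes rose, 1 fell and 3 did not pass the test (edgeR quasi-likelihood test, Benjamini-Hochberg adjusted p under 0.05 over all genes). Over all 15456 genes tested, 14.1% rose and 14.9% fell. All 4 annexins rose, as did Myof and Trim72, Cav1 fell, and Dysf, Cav3 and Cavin1 did not pass. DESeq2 called the same 6 higher and the same 1 lower, beside 13% and 13.9% of 18128 genes, and the median log2 fold change of the 10 was 0.47, beside 0.0155 over all genes. The libraries of the 2 genotypes did not overlap for 6 members, all higher in Mtm1-/y, beside 13.8% of all genes. The CPM values that follow are scaled by TMM over the 30 libraries, and are listed by library number within each genotype.

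**Figure D2:**
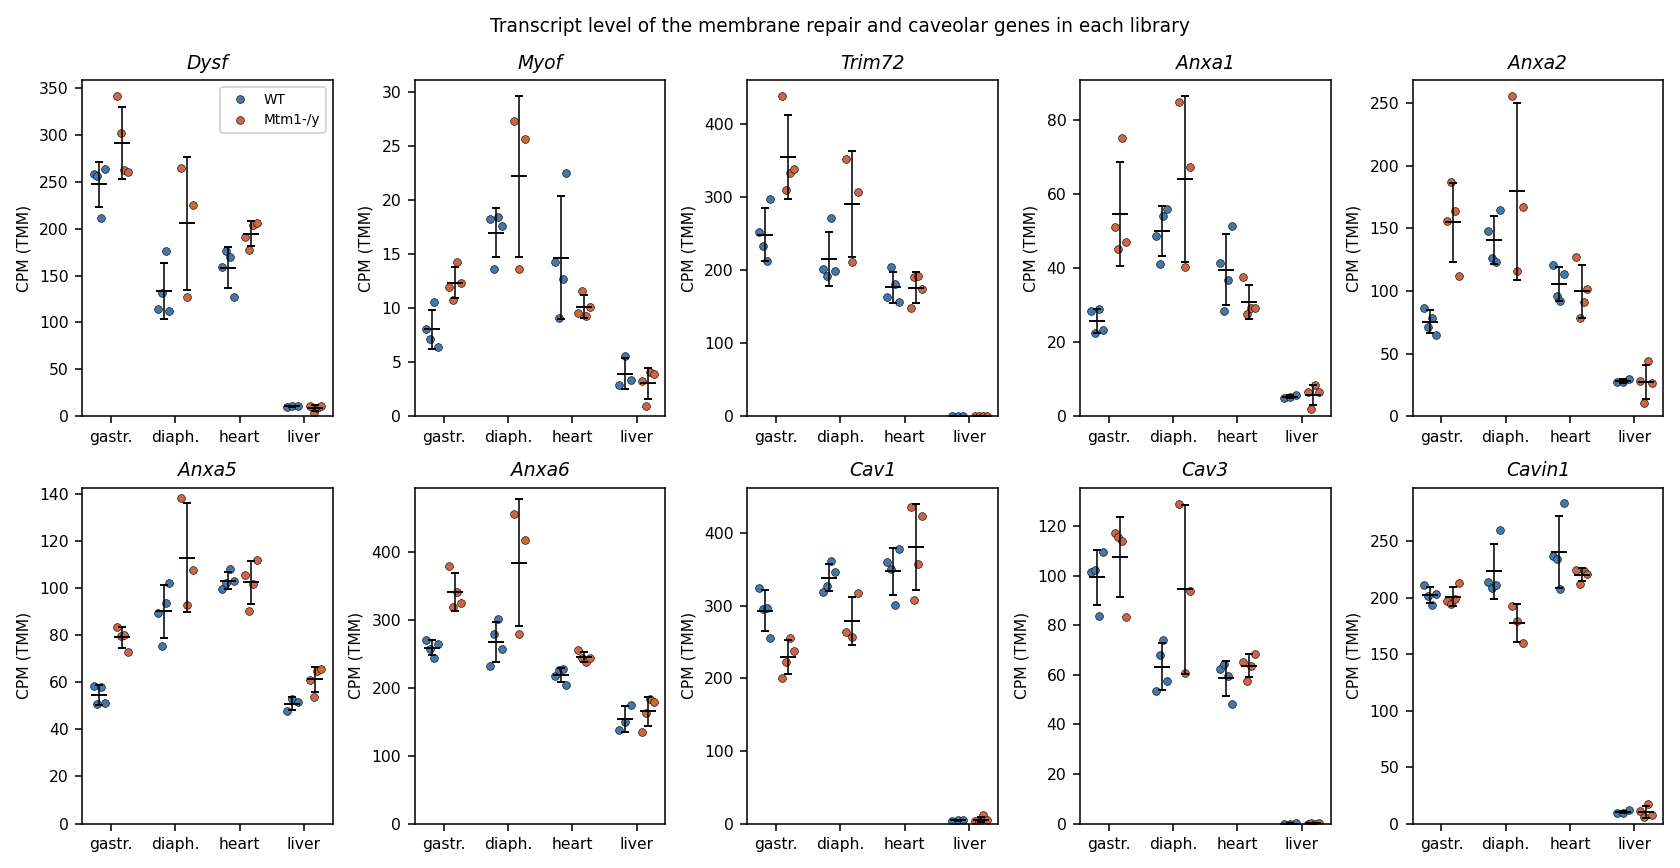
CPM of each gene in each library (points, blue WT and orange Mtm1-/y) with the group mean and SD, in gastrocnemius, diaphragm, heart and liver (3 or 4 libraries a group). In gastrocnemius the Mtm1-/y points lie above all WT points for Myof, Trim72 and the 4 annexins, for Anxa2 from 112 against at most 86.2, and 3 of 4 lie below all WT points for Cav1.

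Among the annexins, Anxa1, a phospholipid-binding protein that also dampens inflammation, was at 28.4, 22.5, 28.9 and 23.4 CPM in WT and at 51.2, 45.2, 75.3 and 47.0 CPM in Mtm1-/y gastrocnemius. It rose 2.14-fold (log2 fold change 1.099, SE 0.17, adjusted p = 0.00141). Mtm1-/y library 3 was the highest, and the lowest knockout library was still above the highest WT library. Anxa2, which pairs with S100a10 at the membrane, was at 86.2, 71.5, 78.6 and 64.8 CPM in WT and at 156, 187, 164 and 112 CPM in Mtm1-/y. It rose 2.08-fold (1.05, SE 0.15, adjusted p = 0.00098), with library 4 the lowest of the knockout group and no overlap.

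Anxa5, known for binding phosphatidylserine and for forming lattices at membrane tears, was at 58.5, 50.8, 57.9 and 51.3 CPM in WT and at 83.7, 79.6, 80.1 and 72.9 CPM in Mtm1-/y. It rose 1.46-fold without overlap (log2 fold change 0.55, SE 0.075, adjusted p = 0.000818). Anxa6, the largest of the annexin proteins, was at 271, 257, 245 and 265 CPM in WT and at 379.7, 319, 342 and 325 CPM in Mtm1-/y. It rose 1.33-fold (0.41, SE 0.073, adjusted p = 0.00271), again without overlap. These 4 annexins kept their direction and passed under each of the other scalings, filters and tools and without any single gastrocnemius library. Anxa5 and Anxa6 fell short only of the additional requirement of an absolute log2 fold change over 1.

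Of the ferlins, Myof was at 8.07, 7.15, 10.5 and 6.44 CPM in WT and at 12.0, 10.8, 14.3 and 12.3 CPM in Mtm1-/y gastrocnemius. The lowest knockout library exceeded the highest WT library, WT 3, by a small margin. Myof rose 1.55-fold (log2 fold change 0.63, SE 0.16, adjusted p = 0.0155), although without WT gastrocnemius 2 its adjusted p was 0.0507 at a log2 fold change of 0.57, and in 1 edgeR fit over all 30 libraries it was 0.165 at 0.62. Dysf was at 259, 256, 212 and 264 CPM in WT, where library 3 stood apart from the rest, and at 342, 303, 263 and 260.2 CPM in Mtm1-/y. Knockout libraries 1 and 2 were above every WT library and the other two were within the WT range. Its log2 fold change was 0.25 (95% interval 0.022 to 0.48, adjusted p = 0.0927).

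Trim72, an E3 ubiquitin ligase of striated muscle that nucleates the repair patch, was at 251, 232, 213 and 297 CPM in WT and at 438, 309, 332 and 339 CPM in Mtm1-/y. All knockout libraries were above all WT libraries, and knockout library 1 was the highest. Trim72 rose 1.44-fold (log2 fold change 0.53, SE 0.13, adjusted p = 0.0119), although the fit over all 30 libraries gave 0.52 with an adjusted p of 0.205. Its exons share 617 bases with the antisense gene Gm15533, and those of Dysf and Anxa2 share 105 and 98 bases with the antisense genes Gm33024 and Gm16144. Dysf also shares 352 exon bases with the antisense gene Gm15475, which has no values in the counts used here. The library kit keeps the strand, but the strand setting of the counting was not given in the sources used here.

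Among the caveolar genes the direction differed by member. Cav1 was at 325, 296, 298 and 256 CPM in WT and at 200.5, 223, 256 and 237 CPM in Mtm1-/y gastrocnemius. Knockout library 3 and WT library 4 met at the same level, and the other 3 knockout libraries were below every WT library. Cav1 fell by 0.34 on the log2 scale (SE 0.10, adjusted p = 0.029), which is 1.27-fold lower. Its call depended on single libraries, since the adjusted p was 0.0626 to 0.0743 without WT 1, WT 2, WT 3, Mtm1-/y 1 or Mtm1-/y 2. With library totals alone, Cav1 was at −0.0080 while the median of all genes moved to 0.351, so that relative to that median it was at −0.36.

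Cav3, whose mutations cause rippling muscle disease and a limb-girdle dystrophy, was at 101, 102, 83.6 and 109.6 CPM in WT and at 117, 115, 114 and 83.4 CPM in Mtm1-/y gastrocnemius. Knockout library 4 was the lowest of all 8 and the other 3 were the highest, so the groups overlapped. The log2 fold change was 0.13 (95% interval −0.13 to 0.40, adjusted p = 0.436). Cavin1, the coat protein without which caveolae do not form, was at 211, 201, 193 and 203 CPM in WT and at 197, 194, 198 and 213 CPM in Mtm1-/y. The interval of its log2 fold change, −0.13 to 0.14 around 0.0046, was the narrowest of the 10 (adjusted p = 0.962), and DESeq2 gave it the opposite sign, at −0.0012.

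**Figure D3:**
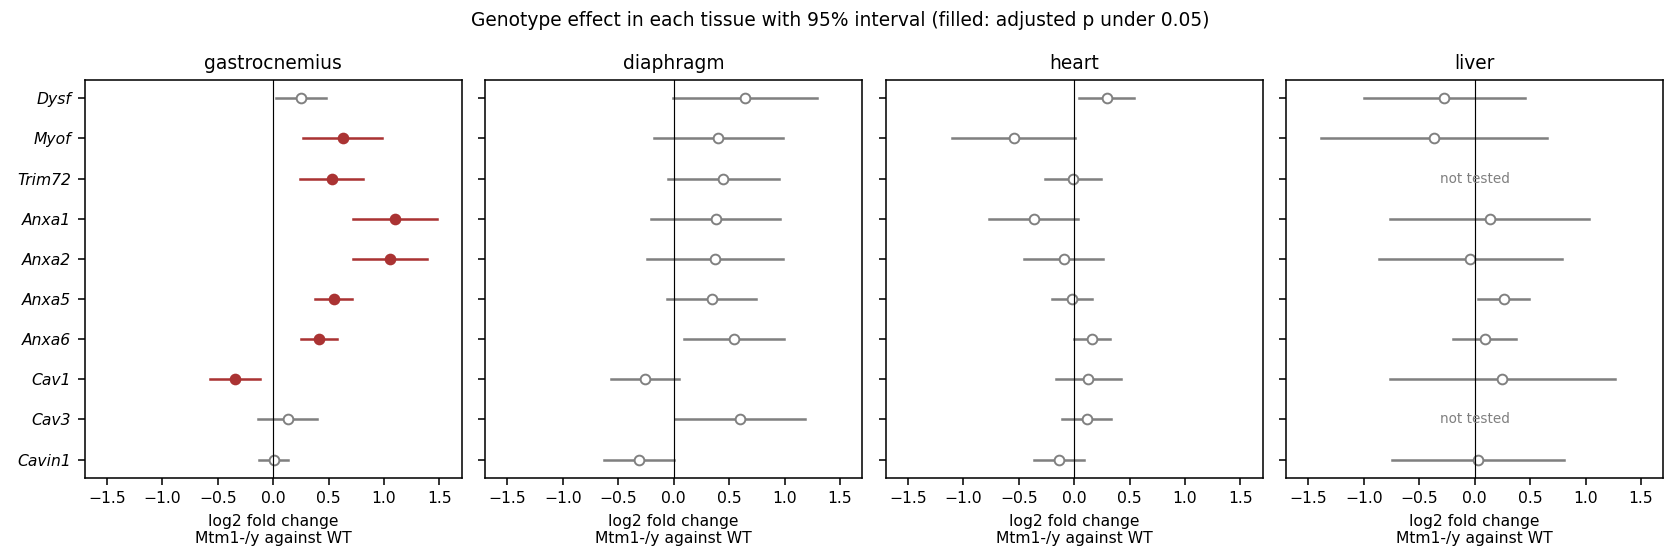
Log2 fold change of Mtm1-/y against WT for each gene in each tissue (points) with its 95% interval (lines), where filled points passed at an adjusted p under 0.05. In gastrocnemius 7 points are filled, from −0.34 for Cav1 to 1.099 for Anxa1, and in diaphragm, heart and liver none is.

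Cell type markers moved in the same gastrocnemius libraries. Of 10 endothelial markers 3 fell and 0 rose, and their summed level was 579 to 719 CPM in WT and 432 to 549 CPM in Mtm1-/y, without overlap. Of 10 macrophage markers 9 rose, with sums of 62.4 to 109.9 CPM in WT and 183 to 223 CPM in Mtm1-/y, and of 10 fibroblast markers 5 rose, with overlapping sums of 4106 to 9858 and 4965 to 12320 CPM. Satellite cell and regenerating fibre markers numbered 6 higher and 1 lower of 10 (2937 to 3895 CPM in WT and 4128 to 6279 CPM in Mtm1-/y). Des is in that list, whose sum was 1085 to 1305 CPM in WT heart with 3 to 6 genes at 0 counts. The sum therefore need not stand for those cells alone. Of 10 smooth muscle and pericyte markers 1 rose and 3 fell. Their sums were 1215 to 1367 CPM in WT and 924 to 1044 CPM in Mtm1-/y, without overlap. White adipocyte markers numbered 7 higher and 1 lower of 10, with overlapping sums of 1136 to 1581 and 1008 to 1593 CPM. Of 10 skeletal fibre markers 8 fell and 2 rose (Myh1 and Myh2, both fast myosin heavy chains), with sums of 221000 to 264500 CPM in WT and 144400 to 155300 CPM in Mtm1-/y. The part of these cell types in the changes of the annexins, Myof and Cav1 was not tested.

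Other genes of the pathway were read from lists by role, beside the share of all genes given above. Of the 6 other annexins measured in gastrocnemius, Anxa4 rose 2.41-fold (log2 fold change 1.27, SE 0.083), Anxa7 rose 1.85-fold (0.89, SE 0.11), Anxa3 fell by 0.36 on the log2 scale (SE 0.090) and 3 did not pass. Anxa4 was at 26.6 to 29.9 CPM in WT and at 59.7 to 73.6 CPM in Mtm1-/y. Of 7 S100 proteins, small partners of annexins, 4 rose and 0 fell. S100a10, the partner of Anxa2, was at 40.01, 33.3, 38.4 and 31.8 CPM in WT and at 50.5, 68.1, 46.2 and 40.9 CPM in Mtm1-/y (0.53, SE 0.15, adjusted p = 0.0243). S100a4 rose 4.51-fold (log2 fold change 2.17, SE 0.175), S100a13 2.33-fold (1.22, SE 0.098) and S100a6 2.24-fold (1.16, SE 0.12).

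Among 15 other ferlins and dysferlin partners, 5 rose, 3 fell and 7 did not pass. The giant dysferlin partner Ahnak rose 1.35-fold (log2 fold change 0.44, SE 0.063), its relative Ahnak2 rose 7.40-fold (2.89, SE 0.28), and the calpain small subunit Capns1 rose 1.26-fold (0.33, SE 0.079). Capn3, the muscle calpain mutated in a limb-girdle dystrophy, fell by 0.65 on the log2 scale (SE 0.087), from 271 to 340.2 CPM in WT to 170.2 to 208 CPM in Mtm1-/y. Of 14 genes of the ESCRT machinery, which pinches off damaged membrane, 5 rose and 1 fell, all by less than 1 on the log2 scale, among them Pdcd6 (0.39, SE 0.0765), Pdcd6ip (0.27, SE 0.056) and Vps4a (−0.26, SE 0.0605).

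The 12 other proteins of the caveolar coat and neck had a median log2 fold change of −0.043, beside 0.0155 over all genes. Cav2, which assembles with Cav1, was at 77.1, 68.4, 70.9 and 63.7 CPM in WT and at 43.7, 55.9, 57.7 and 49.8 CPM in Mtm1-/y, and fell by 0.42 (SE 0.10, adjusted p = 0.0118) without overlap. Cavin2, a cavin of blood vessels and fat, fell by 0.47 (SE 0.13) and Ehd3 by 0.43 (SE 0.0815). Ehd4 was the only one of the 12 that rose (0.67, SE 0.090), and the muscle-specific Cavin4 was at 194 to 244 CPM in WT and 179.7 to 276 CPM in Mtm1-/y, with overlap (named after its values were seen). In diaphragm, heart and liver edgeR passed 0 genes of these 5 lists, in each of which 0 to 5 genes had an unadjusted p under 0.05.

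**Figure D4:**
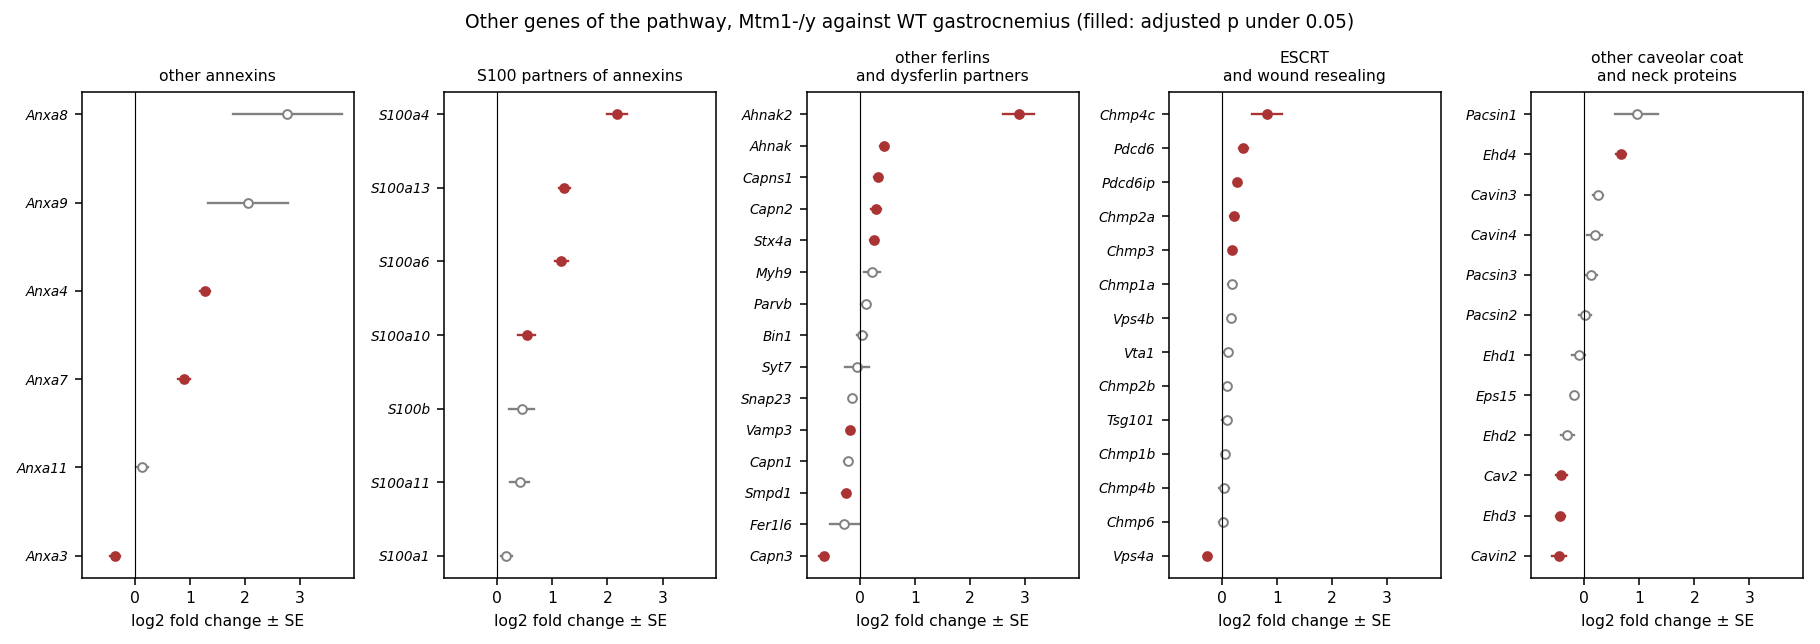
Log2 fold change (points) and SE (lines) of the other pathway genes in Mtm1-/y against WT gastrocnemius (n = 4 and 4), by list, where filled points passed at an adjusted p under 0.05. All 4 filled S100 genes lie above 0, from 0.53 to 2.17, while 3 of the 4 filled caveolar genes lie between −0.47 and −0.42.

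In the diaphragm 0 of the 10 members passed by edgeR, DESeq2 or limma voom, and 2 had an unadjusted p under 0.05 (Anxa6 and Cav3). Of 16796 genes edgeR called 0.0119% and 10.8% had an unadjusted p under 0.05, while DESeq2 called 2.39% of 18379 and limma voom 0.0536%. Log2 fold changes were above 0 for 8 members, with a median of 0.39, and below 0 for Cav1 and Cavin1. The knockout libraries differed among themselves. Mtm1-/y 1 and 4 were above every WT library for the 8 members with a positive log2 fold change, and Mtm1-/y 2 lay within or below the WT range for all 8.

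Anxa6 was at 232, 279, 302 and 257 CPM in WT and at 457, 279.7 and 418 CPM in Mtm1-/y diaphragm 1, 2 and 4, a log2 fold change of 0.54 (95% interval 0.094 to 0.996, adjusted p = 0.39). Dysf was at 114, 132, 176 and 112 CPM in WT and at 265, 127 and 225 CPM in Mtm1-/y (0.64, 95% interval −0.0056 to 1.29, adjusted p = 0.469). Cav3 was at 53.3, 67.8, 74.2 and 57.5 CPM in WT and at 129, 60.7 and 93.8 CPM in Mtm1-/y (0.60, interval 0.011 to 1.19, adjusted p = 0.456). For each of these 3 genes, libraries 1 and 4 of the knockout were high and library 2 was among the WT libraries.

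Anxa2 was at 148, 127, 123 and 165 CPM in WT and at 256, 116 and 167 CPM in Mtm1-/y, and Anxa1 at 48.6, 41.2, 54.2 and 56.0 and at 84.9, 40.4 and 67.4 CPM. Myof, Trim72 and Anxa5 had the same arrangement, with log2 fold changes of 0.40, 0.45 and 0.34 and adjusted p of 0.642, 0.523 and 0.538. Cav1 and Cavin1 were arranged otherwise, since all 3 knockout libraries were below all 4 WT libraries. Cav1 was at 319.8, 328, 361 and 347 CPM in WT and at 264, 257 and 317 CPM in Mtm1-/y (−0.26, interval −0.56 to 0.049, adjusted p = 0.549). Cavin1 was at 214, 209, 211 and 259.6 CPM in WT and at 193, 179 and 159.5 CPM in Mtm1-/y (−0.31, interval −0.63 to 0.0051, adjusted p = 0.473). Groups without overlap and lower in the knockout were seen for 5.53% of all genes. Endothelial markers summed to 674 to 782 CPM in WT and 576 to 661 CPM in Mtm1-/y diaphragm, and white adipocyte markers to 3495 to 5637 and 2545 to 2949 CPM, both lower in the knockout without overlap, although 0 of 10 markers of either list passed by edgeR and 2 and 3 of them had an unadjusted p under 0.05. Their part in the values of Cav1 and Cavin1 was not tested. The white adipocyte list includes Lpl and Fabp4, and its sum was 3046 to 5068 CPM in WT heart. That sum therefore need not stand for fat cells alone.

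The liver transcripts of the diaphragm moved with part of these values. Mtm1-/y 2, at 45940 CPM of hepatocyte markers, was the lowest knockout library for the 8 genes with a positive log2 fold change, and WT 3, at 468 CPM, was the highest WT library for Dysf, Myof, Trim72, Anxa6, Cav1 and Cav3. For Anxa1, Anxa2, Anxa5 and Cavin1 the highest WT library was WT 4, at 27510 CPM of these markers, and WT 3 was the lowest for Anxa2. The lowest knockout library for Cavin1 was Mtm1-/y 4, at 788 CPM of these markers. With the 4 diaphragm libraries above 10000 CPM left out, an alternative chosen after the data were seen, 1 WT and 2 Mtm1-/y libraries remained. All spread then comes from the 2 knockout libraries, the lone WT library is assumed to vary like them, and no count of calls is drawn from it. The 10 log2 fold changes kept their sign, from 0.28 for Trim72 to 0.77 for Anxa2 among the 8 positive ones, at −0.32 for Cav1 and −0.26 for Cavin1. Without Mtm1-/y 2 alone, Anxa6 had the lowest adjusted p, 0.103, at a log2 fold change of 0.72. Satellite cell and regenerating fibre markers, Des among them, summed to 1838 to 2750 CPM in WT and to 3904, 2529 and 5329 CPM in Mtm1-/y diaphragm 1, 2 and 4. Fibroblast markers summed to 2788 to 5489 CPM in WT and to 9547, 5214 and 9501 CPM in Mtm1-/y, so that both lists were lowest in knockout library 2 as well. Their part in the result was not tested. With log10 of the hepatocyte sum as a covariate, also chosen after the data were seen, the 10 log2 fold changes lay between −0.29 and 0.49 and 0 passed.

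In the heart 0 of the 10 members passed by edgeR, by DESeq2 or by limma voom, and 2 had an unadjusted p under 0.05 (Dysf and Anxa6). EdgeR and limma voom each called 0.00656% of 15238 genes there, DESeq2 called 0.461% of 18643, and 8.88% had an unadjusted p under 0.05 by edgeR. The median log2 fold change of the members was −0.0153, beside −0.00158 over all genes. Dysf was at 159, 176, 169.9 and 127 CPM in WT and at 192, 177, 204 and 206 CPM in Mtm1-/y heart (0.29, 95% interval 0.047 to 0.54, adjusted p = 0.546). Anxa6 was at 217, 227, 227 and 204 CPM in WT and at 256, 244, 239 and 245 CPM in Mtm1-/y (0.16, interval 0.0012 to 0.32, adjusted p = 0.546). Neither gene overlapped between the genotypes, an arrangement seen for 2.15% of all genes in the higher direction, and for Dysf the nearest libraries were WT 2 at 176 CPM and Mtm1-/y 2 at 177 CPM.

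The heart members with the widest intervals were Myof and Anxa1. Myof was at 14.3, 9.07, 12.7 and 22.6 CPM in WT and at 9.54, 11.6, 9.26 and 10.1 CPM in Mtm1-/y (−0.54, interval −1.099 to 0.011), and Anxa1 at 41.4, 28.4, 36.9 and 51.5 CPM and at 37.5, 27.5, 29.3 and 29.2 CPM (−0.37, interval −0.77 to 0.037). WT heart 4 was the highest library for both. That library also had the highest sums of fibroblast markers (7645 CPM, beside 2967 to 5093 in the other WT hearts) and of mesothelial markers (341 CPM, beside 64.3 to 139.8). It was not set apart by these lists alone. Its cardiomyocyte (59720 CPM), endothelial (1322 CPM) and macrophage sums (496.5 CPM) were the highest of the hearts as well. Its white adipocyte (3046 CPM) and smooth muscle and pericyte sums (1689 CPM) were the lowest. Without WT heart 4 the log2 fold changes were −0.25 for Myof and −0.21 for Anxa1, and the part of any of these cell types was not tested further. The remaining 6 members, Trim72, Anxa2, Anxa5, Cav1, Cav3 and Cavin1, had log2 fold changes between −0.13 and 0.13 with intervals that reached from −0.45 to 0.42.

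The effect of the knockout differed between heart and gastrocnemius for 4 of the 10 members, all with a lower effect in heart, beside 9.89% of 16627 genes (contrast of both genotype effects in 1 edgeR fit). The difference was −1.45 on the log2 scale for Anxa1 (SE 0.26, adjusted p = 0.00196), −1.15 for Myof (SE 0.31, adjusted p = 0.0177), −1.13 for Anxa2 (SE 0.23, adjusted p = 0.00414) and −0.55 for Anxa5 (SE 0.11, adjusted p = 0.0032). Anxa1 and Myof had log2 fold changes below 0 in heart and above 0 in gastrocnemius, and Anxa5 and Anxa2 were near 0 in heart. Cav1 had the opposite order, at 0.13 in heart and −0.34 in gastrocnemius, with a difference of 0.49 (95% interval 0.13 to 0.84, adjusted p = 0.0516) that DESeq2 and limma voom called, beside 12.5% of genes higher by DESeq2 and 24% in either direction by voom. The 4 calls were made without any single library as well, while 1 edgeR fit over all 30 libraries kept Anxa1 and Anxa5 and gave adjusted p of 0.079 for Myof and 0.0589 for Anxa2. For Trim72 the difference was −0.52 (interval −0.91 to −0.13, adjusted p = 0.0568). Dysf and Cav3 did not pass, at differences of 0.057 (interval −0.28 to 0.40) and −0.0014 (interval −0.36 to 0.36).

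Between diaphragm and gastrocnemius 0 members passed by edgeR, DESeq2 or limma voom, beside 0.28%, 2.14% and 4.49% of all genes, and 3 had an unadjusted p under 0.05 by edgeR, beside 12.8%. These were Anxa1 (−0.73, 95% interval −1.40 to −0.053), Anxa2 (−0.69, −1.36 to −0.020) and Cavin1 (−0.33, −0.60 to −0.059), all lower in diaphragm. Between heart and diaphragm edgeR and DESeq2 passed 0 members, beside 0.00573% and 1.24% of genes. An unadjusted p under 0.05 was found for 3 (Myof, Anxa1 and Cav1), beside 10.6%. Limma voom with sample weights passed Anxa6 and Cav3 in that contrast, beside 4.13%.

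In the liver 8 of the 10 members had enough counts to be tested, and 0 passed by edgeR, DESeq2 or limma voom. Mtm1 itself did not pass there by edgeR either (log2 fold change −1.60, SE 0.23, adjusted p = 0.365). The 0 calls therefore do not show an absence of change. EdgeR and limma voom called 0% of 14305 genes, DESeq2 called 0.136% of 18326, and 4.24% of the genes in the edgeR fit had an unadjusted p under 0.05, among the members Anxa5 alone. Anxa5 was at 47.7, 53.1 and 51.6 CPM in WT and at 60.8, 53.9, 64.6 and 65.7 CPM in Mtm1-/y liver (0.26, 95% interval 0.031 to 0.49, adjusted p = 0.969). Its groups did not overlap, as for 2.22% of all genes in that direction. Anxa6 was at 138, 149.6 and 175 CPM in WT and at 136, 163, 183 and 179 CPM in Mtm1-/y (0.091, interval −0.19 to 0.37).

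For the other 6 tested members the liver groups overlapped, and Mtm1-/y liver 2 was the lowest knockout library for each. Dysf was at 10.1, 10.9 and 10.6 CPM in WT and at 10.7, 3.79, 9.20 and 11.3 CPM in Mtm1-/y (−0.27, 95% interval −1.003 to 0.46). Anxa2 was at 27.5, 26.9 and 30.0 CPM in WT and at 28.2, 10.9, 44.4 and 26.7 CPM in Mtm1-/y (−0.039, interval −0.87 to 0.79). The same library 2 had the lowest endothelial sum, 133.5 CPM beside 219 to 241 CPM in the other 3 knockout livers, and the highest sum of skeletal fibre markers, 158 CPM beside 10.4 to 45.8 CPM. Its macrophage (76.2 CPM), fibroblast (175 CPM), smooth muscle and pericyte (71.0 CPM), white adipocyte (72.0 CPM) and mesothelial sums (89.5 CPM) were also the lowest of the knockout livers. Library 2 held 18 counts of Trim72 and 7 of Cav3, where the other Mtm1-/y livers held 3 to 5 and 0 to 2. A difference of genotype effect between liver and gastrocnemius was found for 0 members, beside 6.34% of genes, although 2 (Anxa1 and Anxa2) had an unadjusted p under 0.05, beside 22.3%, and without Mtm1-/y liver 3 Anxa2 alone passed.

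Within groups, some of the 10 genes varied together from library to library. Over the 23 libraries of muscle and heart, as deviations of log2 CPM from the group mean, Pearson's r was 0.91 for Dysf and Cav3, 0.90 for Dysf and Anxa6, 0.81 for Dysf and Trim72, and 0.82 for Myof and Anxa1. Cav1 had an r between −0.27 and 0.47 with each of the other 9. Both genes of a pair come from the same libraries and share their depth and scaling, so the values are a description only. The 23 libraries include those of diaphragm, which differed in liver transcripts. There Dysf was at 265, 127 and 225 CPM in Mtm1-/y 1, 2 and 4, and Cav3, Anxa6 and Trim72 were also lowest in Mtm1-/y 2. How far these r rest on the diaphragm libraries was not tested.

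Across all 30 libraries, the genes whose log2 CPM was most like that of each member were ranked by Pearson's r. Over the 10992 genes whose average was 5 CPM or more, Cav3 was closest to Cavin4 (r = 0.997), and Cav1 and Cavin1 were both closest to Ehd2 (r = 0.996 and 0.997). Trim72 was closest to Cav3 (r = 0.997), and Anxa1 and Anxa2 to each other (r = 0.981). Dysf was closest to Msantd3 and Abcc1 (both r = 0.991), Myof to Adcy7 (r = 0.962), Anxa5 to Clic1 (r = 0.944) and Anxa6 to Serpinb1a (r = 0.951). The libraries share their tissues, depth and scaling. Liver is among them, so the gap between liver and the muscles is part of these r. Spearman's rho was 0.903 for Trim72 and Cav3, 0.956 for Cav3 and Cavin4, and 0.941 for Anxa1 and Anxa2. Within groups of muscle and heart, Pearson's r was 0.664 for Trim72 and Cav3 and 0.692 for Anxa1 and Anxa2.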

How the data were processed

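RNA-seq of 30 mouse libraries (polyA RNA, TruSeq Stranded mRNA kit) was analysed from 1 table of gene counts. The authors deposited raw counts per gene. Per the labels, bcl2fastq 2.17.1.14, cutadapt 1.10, STAR 2.5.3a and HTSeq 0.6.1p1 were used with the mm10 genome, and the strand setting of the counting was not given in the sources used here. Columns of the table were matched to libraries by their names, and 0 columns were unused.

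In R 4.3.3, each tissue was tested with edgeR 4.0.16 (quasi-likelihood test, filterByExpr with a minimum count of 10, TMM scaling, Benjamini-Hochberg adjustment over all genes tested, pass at 0.05). An SE is the absolute log2 fold change over the square root of F, and 95% intervals use the t quantile. Genotype effects were compared between tissues in 1 fit of both, and WT tissues in 1 fit of the WT libraries. CPM used TMM factors over all 30 libraries, and RPKM the summed exon length of each gene in the matching annotation. The scripts were tested on simulated data.

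The 10 members were all named. Up to 4 genes of each pathway list, taken by rising p from those past the threshold in gastrocnemius, could be named, and likeness was Pearson's r of log2 CPM (prior count 2) over genes that averaged 5 CPM or more. The members and lists were chosen with earlier results of these data known. Alternatives were DESeq2 size factors, library totals, no filter, DESeq2 1.42.0, limma 3.58.1 (voom with sample weights), a replicate block, 1 fit over all libraries, an added fold threshold and leaving out each library. After the data were seen, the diaphragm was also tested without libraries over 10000 CPM of hepatocyte markers and with that sum as a covariate. Promoter windows came from RefSeq (GRCm38.p6).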

Additional observations from a re-analysis of the deposited data

Results flagged for a closer look

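In 59 groups of 4 libraries and 1 gene each, 5 had a library far from the other 3 by Dixon's criterion, where chance alone gives about 1 in 20. Dysf was lowest in WT gastrocnemius 3, at 211.9 CPM, and Cav3 was lowest in Mtm1-/y gastrocnemius 4, at 83.4 CPM. In WT diaphragm, Trim72 was highest in library 3, at 270.5 CPM, and Cavin1 was highest in library 4, at 259.6 CPM. Trim72 was highest in Mtm1-/y liver 2, at 0.8328 CPM, the library that also had the highest sum of skeletal fibre markers among the livers.

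The genotype effect differed between heart and gastrocnemius, by the test of the difference itself, for Anxa1 (−1.45 on the log2 scale), Myof (−1.15), Anxa2 (−1.13) and Anxa5 (−0.548), each lower in heart.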

How the results depend on the processing

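Of 1082 values for single genes under another setting, 992 kept their direction and side of the threshold, 59 no longer passed, 4 newly passed and 27 changed sign. The 992 include values that passed in neither setting, so they are not a count of calls kept. The Cav1 call in gastrocnemius was kept in 7 settings and lost in 9. With 1 edgeR fit over all 30 libraries, the number of members passing became 4 in gastrocnemius, 1 in diaphragm (Anxa6, 0.52, adjusted p = 0.0455), 2 for heart minus gastrocnemius, 5 for WT heart against gastrocnemius and 0 for WT heart against diaphragm. Requiring an absolute log2 fold change over 1 left 2 in gastrocnemius, 1 for WT diaphragm against gastrocnemius, and 0 for WT heart against gastrocnemius and against diaphragm. Library totals alone gave 8 for heart minus gastrocnemius, 4 for liver minus gastrocnemius and 0 for WT heart against diaphragm. They also passed Dysf, Cav3 and Cavin1 in gastrocnemius, at 0.24, 0.12 and −0.011 relative to the median of all genes. Limma voom gave 7 for heart minus gastrocnemius, 2 for heart minus diaphragm and 4 for WT heart against diaphragm, where DESeq2 size factors and no filter each gave 1. The low-hepatocyte setting left 1 WT diaphragm library, so no count of members is drawn from it for WT diaphragm against gastrocnemius.

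Leaving out 1 library at a time, 5 to 7 members passed in gastrocnemius, 0 in diaphragm, heart and liver, 4 to 6 for heart minus gastrocnemius, 0 for diaphragm minus gastrocnemius and heart minus diaphragm, and 0 to 1 for liver minus gastrocnemius. For WT tissues the ranges were 6 to 7 (diaphragm against gastrocnemius), 6 to 8 (heart against gastrocnemius), 2 to 3 (heart against diaphragm), 9 (liver against gastrocnemius) and 10 (liver against diaphragm or heart).

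Signs changed mostly near 0. Cavin1 in gastrocnemius was at −0.0012 with DESeq2, −0.00048 with voom and −0.0080 in the fit over all libraries, and ranged from −0.017 to 0.030 with 1 library left out. In heart the same left-out ranges were −0.061 to 0.063 for Trim72, −0.24 to 0.012 for Anxa2 and −0.061 to 0.041 for Anxa5, which was at 0.018 with voom. In liver they were −0.072 to 0.42 for Anxa1, −0.35 to 0.22 for Anxa2, −0.35 to 0.47 for Cav1 and −0.32 to 0.23 for Cavin1, and Anxa2 was at 0.024 with voom and Cavin1 at −0.0052 with library totals. The lowest values of Anxa1, Cav1 and Cavin1 were those without Mtm1-/y liver 3, and the highest of all 4 those without Mtm1-/y liver 2. With library totals, WT heart against gastrocnemius gave Trim72 at 0.063 and Anxa6 at 0.31. The cause of these changes was not tested, and effects smaller than the printed intervals could not be resolved with 3 or 4 libraries a group.

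The labels do not say whether replicate numbers mark a shared mouse, so libraries were not treated as paired. Deviations of same-numbered libraries correlated between −0.729 and 0.571 over 14 pairs of genotypes (5 over 0.1), which are different mice. Over 21 pairs of WT tissues they correlated between −0.161 and 0.347 (6 over 0.1). Number 1 gave 0.347 for diaphragm and gastrocnemius, 0.255 for heart and gastrocnemius and 0.328 for heart and diaphragm. Whether those libraries share a mouse was not tested. With a replicate block 6 members passed in gastrocnemius, where Cav1 was at −0.34 (adjusted p = 0.058), 4 for heart minus gastrocnemius and 3 for WT heart against diaphragm, and Anxa1 in liver was at −0.088.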
